A study of Mus musculus with 8 samples.

Results

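The genes of fatty acid oxidation, ketone body metabolism and the PPAR receptors were examined in intestinal crypts of Mex3a-/- mice. The 35 members were chosen by gene symbol. The rule used no expression value, but it was written with earlier results of these data known. All 35 were found once among the 55114 genes of the deposited table. Crypts are the epithelial pockets that hold the intestinal stem cells. They were freed with EDTA from 4 Mex3a-/- (KO) and 4 littermate control (Ctrl) intestines, all from C57BL/6 mice aged 8 weeks, and total RNA was sequenced. The KO is constitutive and lacks exon 1 and part of exon 2 of Mex3a, so the gene, which encodes an RNA-binding protein of the stem cell zone, was absent from every tissue and from development on. The replicates of a genotype are separate mice. The labels name no segment of the intestine. In bulk RNA, fewer cells of a type and less RNA per cell cannot be told apart.

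Fatty acids are activated to acyl-CoA, carried into mitochondria by the carnitine shuttle, and shortened in repeated turns of beta-oxidation, whose electrons reach the respiratory chain through the electron transfer flavoprotein. Ketone bodies are made from the acetyl-CoA that results, and are burned in tissues that carry the enzyme encoded by Oxct1. The PPARs are nuclear receptors that bind fatty acids and switch on many of these enzymes. In the intestine the pathway is known to respond to feeding, fasting and dietary fat, and in crypts it is known to be used by intestinal stem cells.

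A PPAR binds DNA with RXR at a direct repeat of the hexamer AGGTCA with 1 base between the copies. This repeat was searched on both strands of the RefSeq promoter windows (GRCm38.p6, 250 bases before to 50 bases after a start), allowing 2 of its 12 fixed letters to differ. Windows were found for 29 of the 35 members (32 windows), and 4 of these windows, or 12.5%, held a match, against 3.86% of the 32851 windows of all genes. Overlapping matches to other motifs were not searched. The 4 matches are given in full because they are the only ones found near a member's start. Each is written 5′ to 3′ on the strand of the gene, the match is in capitals, and each differs from the repeat at 2 letters.
Plin2, lipid droplet coat, chr4:86670264-86670292, minus strand, match read on the opposite strand: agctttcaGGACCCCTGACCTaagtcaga
Echs1, enoyl-CoA hydratase, chr7:140116484-140116512, minus strand, match read on the gene's strand: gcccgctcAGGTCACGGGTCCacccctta
Etfa, electron transfer flavoprotein, chr9:55512300-55512328, minus strand, match read on the opposite strand: gcacacccTTACCTTTGCCCTactcccaa
Slc25a20, carnitine carrier, chr9:108662134-108662162, plus strand, match read on the gene's strand: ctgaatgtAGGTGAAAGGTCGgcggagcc
The first base of the match lay at position -225 from the start in Plin2, -83 in Echs1, -77 in Etfa and 7 in Slc25a20. Acaa2, Acat1, Angptl4, Decr1, Hsd17b4 and Vnn1 were not among the windows used. A match is a run of letters and not a shown binding site, and windows of this length leave out distal sites.

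All 35 members were expressed and all passed edgeR's filter on low counts, so none was lost from the comparison. Levels are given as FPKM, which divides by gene length, and ranged from a mean over the 8 mice of 155 FPKM for Acaa2, the last thiolase of beta-oxidation, to 2.03 FPKM for the peroxisomal thiolase gene Acaa1b. After Acaa2 came Etfa (109 FPKM), Hadh (83.8 FPKM), the shuttle's gatekeeper Cpt1a (78.2 FPKM) and the long-chain dehydrogenase gene Acadl (73.1 FPKM). Among the receptors, Ppard was the most abundant at 22.8 FPKM, with Ppara at 9.88 FPKM and Pparg at 4.52 FPKM. In the order of mean levels every member overlapped its next neighbour over the 8 mice, in 34 of 34 neighbour pairs, so that the order is loose except over wider distances.

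**Figure D1:**
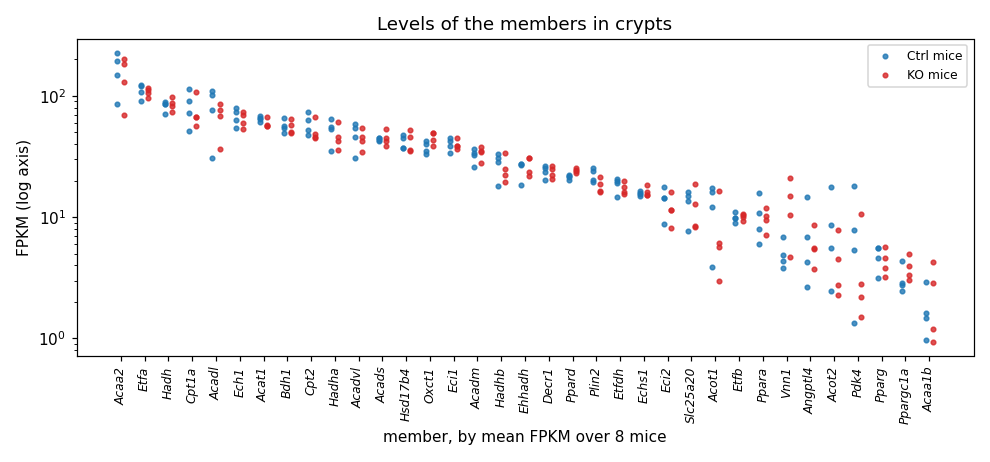
FPKM of the 35 members on a log axis, in order of the mean over 8 mice, with 1 point per mouse (blue, Ctrl; red, KO). The members span from 155 FPKM (Acaa2) to 2.03 FPKM (Acaa1b), and the points of the PPAR-responsive genes Pdk4, Acot1, Acot2 and Angptl4 are spread over the widest ranges together with Acadl, Acaa2, Vnn1 and Acaa1b.

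Mex3a was checked first. It had 269, 236, 327 and 328 counts in Ctrl 1 to 4 and 20, 28, 6 and 8 counts in KO 1 to 4. Every KO mouse lay below every Ctrl mouse, with a log2 fold change of -4.43 (SE 0.43, adjusted p = 0.0310 by edgeR's quasi-likelihood test with Benjamini-Hochberg adjustment; adjusted p = 0.126 with the replicate block, and from 1.68e-30 with DESeq2 to 0.214 over all alternatives). Library totals ran from 20324184 to 24726221 counts in Ctrl and from 23489180 to 30654105 in KO. Replicates 1 and 2 of each genotype carried the Y-linked Ddx3y and replicates 3 and 4 Xist, so that sex was balanced between the genotypes and followed the replicate number.

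The question asked of the members was whether loss of Mex3a moved them as a group or singly. Most did not pass the test. At an unadjusted p under 0.05, 4 of the 35 members differed between KO and Ctrl (11.4%), 3 higher (Ppard, Vnn1 and Oxct1) and 1 lower (Plin2), against 8.38% of the 16109 genes tested, 5.33% higher and 3.05% lower. After Benjamini-Hochberg adjustment over all genes tested, 0 of 35 members passed in edgeR's quasi-likelihood test, where 0.00621% of all genes did (Mex3a alone), and the smallest adjusted p of a member was 0.518. DESeq2 gave 1 member, Vnn1 (adjusted p = 0.0403, and up to 0.952 over the alternatives), where it called 0.577% of all genes. The paired fit, in which the replicate number was a block, gave 4 members at an unadjusted p under 0.05, against 11.3% of all genes.

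Log2 fold changes ran from -1.001 (Acot2) to 1.35 (Vnn1), with 23 members below 0 and 12 above and a median of -0.08. Over all genes tested the median was -0.02 and 46.1% lay above 0. In 11 of the 35 members the fold change was larger than its standard error, and the share over all genes tested was not counted. In 30 of 35 members the SD within genotypes on the log2 CPM scale was larger than the difference of the genotype means, against 71.2% of all genes tested. The count of members at an unadjusted p under 0.05 depended on single mice: it was 1 without Ctrl 3 (6.27% of all genes tested in the same fit), 1 without KO 2 (7.73% of all genes) and 6 without KO 4 (6.16% of all genes). Without the replicate 2 mouse of each genotype, an alternative chosen after the data were seen, it was 1, namely Vnn1, with 6.40% of all genes. Members that gained the unadjusted call when 1 mouse was left out were Ppargc1a (without Ctrl 1), Cpt2, Pdk4 and Acot1 (without KO 4), Acot2 (without Ctrl 2 or KO 4) and Acat1 (without KO 1).

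**Figure D2:**
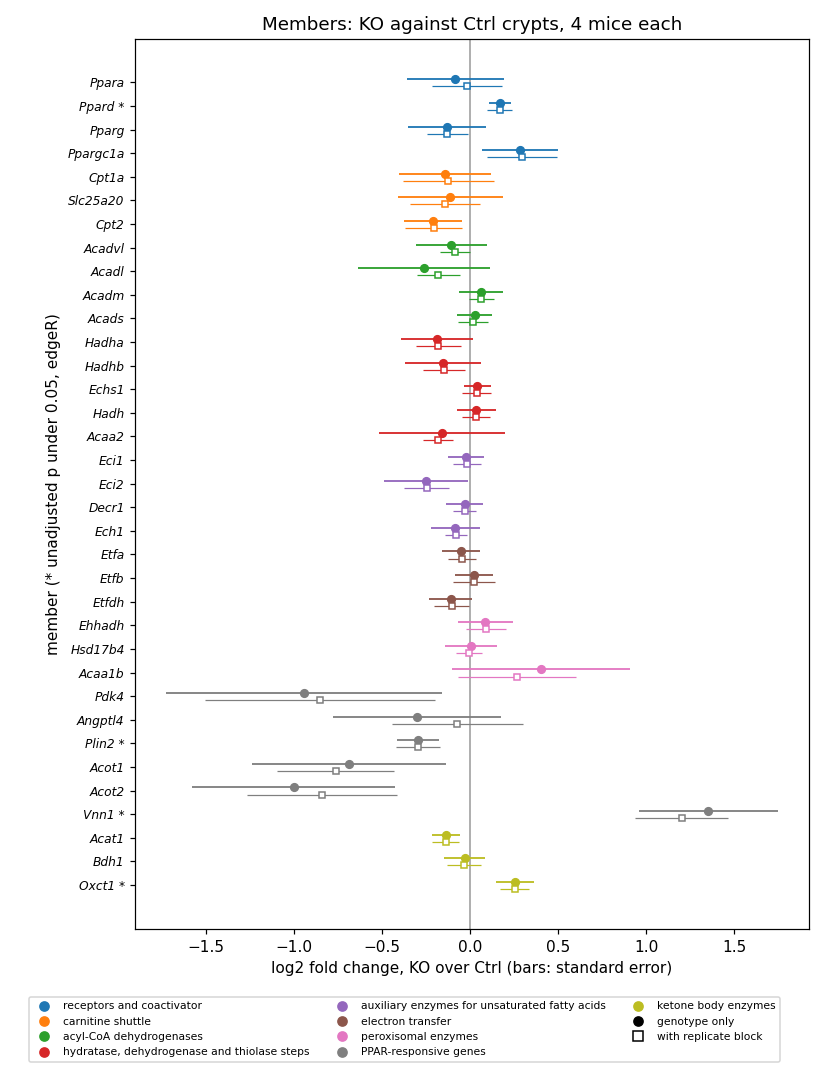
Log2 fold change of KO over Ctrl (x axis) for the 35 members (y axis), coloured by role, with standard errors as bars. Filled circles are from edgeR with genotype only and open squares from the fit with a replicate block; starred members had an unadjusted p under 0.05, and most bars cross 0.

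The receptors and their coactivator divided evenly, with 2 of 4 above and 2 below 0. Ppard (chromosome 17 of GRCm38, 28232700 to 28301474, plus strand) encodes the PPAR that is widely expressed and is known as a regulator of fat use in crypts. It stood at 166, 168, 160.2 and 154 CPM (counts scaled to a common library size, TMM-normalized) in Ctrl 1 to 4 and at 179, 185, 175 and 189.9 CPM in KO 1 to 4. Every KO mouse lay above every Ctrl mouse, which held for no other member and for 4.05% of all genes tested in either direction. The log2 fold change was small, 0.17 (SE 0.06, unadjusted p = 0.0252 and adjusted p = 0.546 by edgeR's quasi-likelihood test). A two-sided exact permutation test of the CPM over all 70 assignments of the mice gave p = 0.0286, the smallest that 4 mice against 4 allow. Genotypes that do not overlap always give this value, so it restates the separation. The unadjusted call was lost without Ctrl 3, without Ctrl 4, without KO 2 and without KO 4.

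Ppara, the receptor most tied to fatty acid oxidation, stood at 61.2, 23.1, 41.5 and 31.2 CPM in Ctrl 1 to 4 and at 36.1, 27.2, 39.4 and 45.4 CPM in KO 1 to 4. The KO mice lay inside the Ctrl range, and the log2 fold change was -0.08 (SE 0.28). Pparg, best known from fat cells, stood at 16.5, 9.44, 13.6 and 16.5 CPM in Ctrl and at 13.6, 9.47, 11.3 and 16.8 CPM in KO, a log2 fold change of -0.13 (SE 0.22). Both receptors were lowest in replicate 2 of each genotype. Ppargc1a encodes a coactivator of PPARs that drives mitochondrial genes, and stood at 29.3, 16.3, 18.3 and 19.0 CPM in Ctrl and at 21.8, 19.8, 33.0 and 26.2 CPM in KO. It was higher in KO in 3 of the 4 same-numbered pairs, with overlapping genotypes and a log2 fold change of 0.28 (SE 0.22, unadjusted p = 0.220 by edgeR), which was 0.50 without Ctrl 1 and 0.13 without KO 3. Pparg was -0.29 without KO 4 and -0.0056 without KO 2.

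The 3 genes of the carnitine shuttle were all below 0 and none passed. Cpt1a, whose product joins acyl groups to carnitine and sets the rate of entry, stood at 394, 220.1, 491 and 314 CPM in Ctrl 1 to 4 and at 289, 291, 242 and 462 CPM in KO 1 to 4. The highest mice were Ctrl 3 and KO 4 and the lowest Ctrl 2 and KO 3, so that the genotypes overlapped almost fully. Its log2 fold change was -0.14 (SE 0.26). Slc25a20, the carrier across the inner membrane, gave -0.11 (SE 0.30) and Cpt2, which releases acyl-CoA in the matrix, gave -0.21 (SE 0.16), which was -0.36 without KO 4 and -0.084 without Ctrl 3.

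None of the enzymes of the mitochondrial cycle reached an unadjusted p under 0.05 by edgeR. Of the 4 acyl-CoA dehydrogenases, which take the first step for chains of different length, Acadvl (-0.11) and Acadl (-0.26) were below 0 on the log2 scale and Acadm (0.06) and Acads (0.03) above it. Acadl varied most of these, from 62.1 CPM in Ctrl 2 to 218 CPM in Ctrl 3. In the hydratase, dehydrogenase and thiolase steps, the subunits of the trifunctional protein, Hadha (-0.19) and Hadhb (-0.15), and Acaa2 (-0.16) were below 0, while Echs1 and Hadh lay at 0.04 and 0.03. The log2 fold changes of these 9 genes all lay within their standard errors with genotype only, while with the replicate block Acaa2 (-0.18, SE 0.09), Acadl (-0.18, SE 0.12), Hadha (-0.18, SE 0.13) and Hadhb (-0.15, SE 0.12) lay beyond them, none at an unadjusted p under 0.05. Without single mice Acadl ranged from -0.53 (without Ctrl 2) to -0.057 (without KO 2), Hadha from -0.35 (without KO 4) to -0.064 (without Ctrl 3) and Hadhb from -0.34 (without KO 4) to -0.045 (without KO 2). Acaa2 ranged from 106 CPM in KO 2 to 345 CPM in Ctrl 1.

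The auxiliary enzymes, which bring unsaturated chains into the cycle, were below 0 in 4 of 4 (Eci1 -0.02, Eci2 -0.25, Decr1 -0.03 and Ech1 -0.08 on the log2 scale), with 0 at an unadjusted p under 0.05. Eci2 was -0.44 without KO 4 and -0.10 without Ctrl 1. Ech1 was lower in KO in all 4 same-numbered pairs, from 146, 125, 167 and 181 CPM in Ctrl 1 to 4 to 136, 121, 160.4 and 168 CPM in KO 1 to 4. The genotypes nevertheless overlapped, and the block gave an unadjusted p of 0.247 by edgeR. The electron transfer genes stayed close to 0, at -0.05 for Etfa, 0.02 for Etfb and -0.11 for Etfdh (-0.21 without Ctrl 2 and -0.057 without Ctrl 3), which passes the electrons to ubiquinone. The peroxisomal members, which shorten very long and branched chains, were all above 0 with none passing: Ehhadh 0.09, Hsd17b4 0.01 and Acaa1b 0.40 (SE 0.51). Acaa1b was the least abundant member and was highest in KO 3, at 8.48 CPM against 1.85 CPM in KO 1.

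Of the 6 PPAR-responsive genes, Pdk4, Angptl4, Acot1 and Acot2 varied widely between mice of a genotype, while Vnn1 and Plin2 were called at the unadjusted threshold. Pdk4 (chromosome 6 of GRCm38, 5483351 to 5496309, minus strand) encodes the kinase that shuts down pyruvate dehydrogenase when fat is burned. It stood at 64.7, 4.72, 27.5 and 19.1 CPM in Ctrl 1 to 4 and at 7.72, 5.24, 9.82 and 37.3 CPM in KO 1 to 4, a 13.7-fold span over the 8 mice. Ctrl 1 and KO 4 were high and both replicate 2 mice were lowest, and the genotypes overlapped. The log2 fold change of -0.94 had a standard error of 0.78 (unadjusted p = 0.257 by edgeR), and it ranged from -1.93 (without KO 4) to -0.18 (without Ctrl 1) when 1 mouse was left out.

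Angptl4, a secreted inhibitor of lipoprotein lipase, followed the same mice, at 53.1, 9.53, 24.3 and 15.3 CPM in Ctrl 1 to 4 and at 19.6, 13.2, 19.5 and 30.4 CPM in KO 1 to 4 (log2 fold change -0.30, SE 0.48). When single mice were left out it ranged from -0.58 to 0.34, and its sign turned without Ctrl 1. Acot1 and Acot2, thioesterases that free fatty acids from CoA in the cytosol and in mitochondria, gave -0.69 (SE 0.55) and -1.001 (SE 0.58). Acot1 was -1.35 without KO 4 and -0.41 without KO 2, and Acot2 was -1.45 without KO 4 and -0.36 without Ctrl 1. Acot1 ranged from 15.3 to 69.5 CPM in Ctrl and from 11.8 to 64.0 CPM in KO. Acot2 ranged from 5.47 to 39.8 CPM in Ctrl and from 5.00 to 17.1 CPM in KO. For both the lowest mouse was KO 2 and the highest Ctrl 1, and 3 of the 4 pairs were lower in KO. Acot1 and Acot2 share 21.9% and 17.1% of their 100-base stretches with paralogs, so the division of reads between them is uncertain.

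Plin2 (chromosome 4 of GRCm38, 86648386 to 86670060, minus strand) encodes the protein that coats lipid droplets and carried 1 of the 4 promoter matches. It stood at 85.1, 71.6, 88.7 and 68.6 CPM in Ctrl 1 to 4 and at 65.8, 58.2, 56.5 and 75.5 CPM in KO 1 to 4. It was lower in KO in pairs 1, 2 and 3 and higher in pair 4, and the genotypes overlapped through KO 4. The log2 fold change was -0.29 (SE 0.12, unadjusted p = 0.0338 and adjusted p = 0.562 by edgeR's quasi-likelihood test). The exact permutation test gave p = 0.114. The unadjusted call was lost without any of Ctrl 1, Ctrl 3, KO 1, KO 2 and KO 3.

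Vnn1 (chromosome 10 of GRCm38, 23894688 to 23905343, plus strand) encodes pantetheinase, an enzyme on the epithelial surface that splits pantetheine, a product of CoA breakdown. It stood at 9.33, 10.5, 11.9 and 16.6 CPM in Ctrl 1 to 4 and at 11.4, 25.1, 51.0 and 35.9 CPM in KO 1 to 4. KO 2, 3 and 4 lay above every Ctrl mouse and KO 1 lay inside the Ctrl range. The log2 fold change of 1.35 (SE 0.39, unadjusted p = 0.00713 and adjusted p = 0.518 by edgeR's quasi-likelihood test) was the largest of the members. The unadjusted p stayed under 0.05 in all 16 alternatives, with a highest value of 0.0252 without the replicate 2 mouse of each genotype. The exact permutation test of the CPM gave p = 0.0857.

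Vnn1 was highest in KO 3 and KO 4, which were also the mice with the highest levels of enterocyte markers. The summed level of 18 enterocyte markers was 3732, 2669, 3858 and 6069 CPM in Ctrl 1 to 4 and 4217, 5023, 13927 and 8953 CPM in KO 1 to 4. All 18 of these markers were above 0 on the log2 scale, 6 of them at an unadjusted p under 0.05, with a median of 0.88. Of 6 ileum markers, 6 were higher at that threshold (median 1.43), with sums of 156 to 511 CPM in Ctrl and 547 to 1052 CPM in KO. The part of either in the Vnn1 value was not tested. The median deviation of all members from the Ctrl mean was -0.04 in KO 3 and 0.23 in KO 4, the mice in which that of the enterocyte markers was 1.79 and 1.27.

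**Figure D3:**
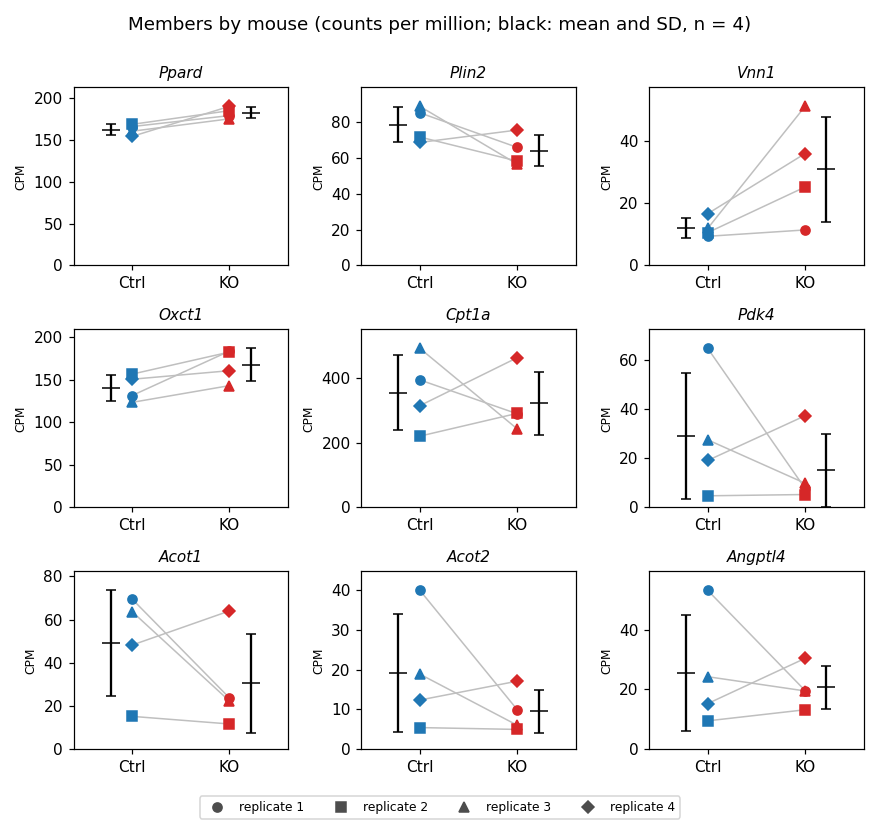
CPM of 9 members in each mouse (y axes from 0), with same-numbered mice of the genotypes joined by a grey line and the mean ± SD (n = 4) in black. Ppard is the only member drawn whose genotypes do not overlap; Pdk4, Acot1, Acot2 and Angptl4 are far lower in KO than in Ctrl in replicate 1 and higher in KO in replicate 4.

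Of the ketone body enzymes, Oxct1 (chromosome 15 of GRCm38, 4026383 to 4155344, plus strand) is the CoA transferase with which tissues burn ketone bodies. It stood at 131, 157, 123 and 151 CPM in Ctrl 1 to 4 and at 184, 183, 143 and 161 CPM in KO 1 to 4. It was higher in KO in all 4 same-numbered pairs, although KO 3 lay inside the Ctrl range. The log2 fold change was 0.25 (SE 0.11), with unadjusted p = 0.0437 and adjusted p = 0.583 by edgeR's quasi-likelihood test, and the exact permutation test gave p = 0.114. The unadjusted call was lost with upper-quartile factors and without any of Ctrl 1, Ctrl 3, KO 1, KO 2 and KO 4. Acat1, the mitochondrial thiolase shared by synthesis and use, gave -0.13 (SE 0.08), and Bdh1, which interconverts both ketone bodies, gave -0.03 (SE 0.11).

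The members varied together across mice more than they differed by genotype. In Ctrl 2, 28 of 35 members were at their lowest of the 4 Ctrl mice, where 29.4% of all genes tested were, and in KO 2, 22 of 35 were at their lowest of the KO mice, where 24.8% of all genes were. For 21 of 35 members replicate 2 was the lowest in both genotypes, against 11.7% of all genes tested. KO 4 was the highest KO mouse for 24 of 35 members, against 19.97% of all genes tested. The members are not independent of each other, so these shares describe 8 mice and are not tests.

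In same-numbered pairs the direction turned with the number. In pair 1, 8 of 35 members were higher in KO (median log2 difference -0.27), in pair 2, 23 (median 0.08), in pair 3, 9 (median -0.20) and in pair 4, 26 (median 0.09). Over all genes tested between 48.4% and 49.9% were higher in KO in each pair. Only 4 of 35 members went the same way in all 4 pairs (Ppard, Vnn1 and Oxct1 up, Ech1 down), against 19.95% of all genes tested.

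Agreement between same-numbered mice was close in replicate 2 and weak or absent in the other replicates, where some mice of different numbers were more alike. Over the 35 members, the deviations of Ctrl and KO mice of the same number from their genotype means on the log2 CPM scale correlated at r = 0.13 for replicate 1, 0.91 for replicate 2, -0.27 for replicate 3 and -0.02 for replicate 4. Of the differently numbered mice, Ctrl 1 with KO 4 gave r = 0.74, Ctrl 4 with KO 3 gave 0.65 and Ctrl 3 with KO 4 gave 0.62, while Ctrl 2 with KO 4 gave -0.91. Over all genes tested the same correlations were 0.13, 0.55, 0.14 and 0.32. These correlations are across genes of the same libraries, deviations within a genotype sum to 0, and no p is attached. The PPAR-responsive genes carried the widest deviations, with medians of 1.01, -1.24, 0.26 and -0.14 in Ctrl 1 to 4 and -0.41, -1.07, -0.69 and 0.55 in KO 1 to 4, relative to the Ctrl mean. The spread within genotypes was wider than usual: the median SD of log2 CPM was 0.27 over the members and 0.20 over all genes tested.

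**Figure D4:**
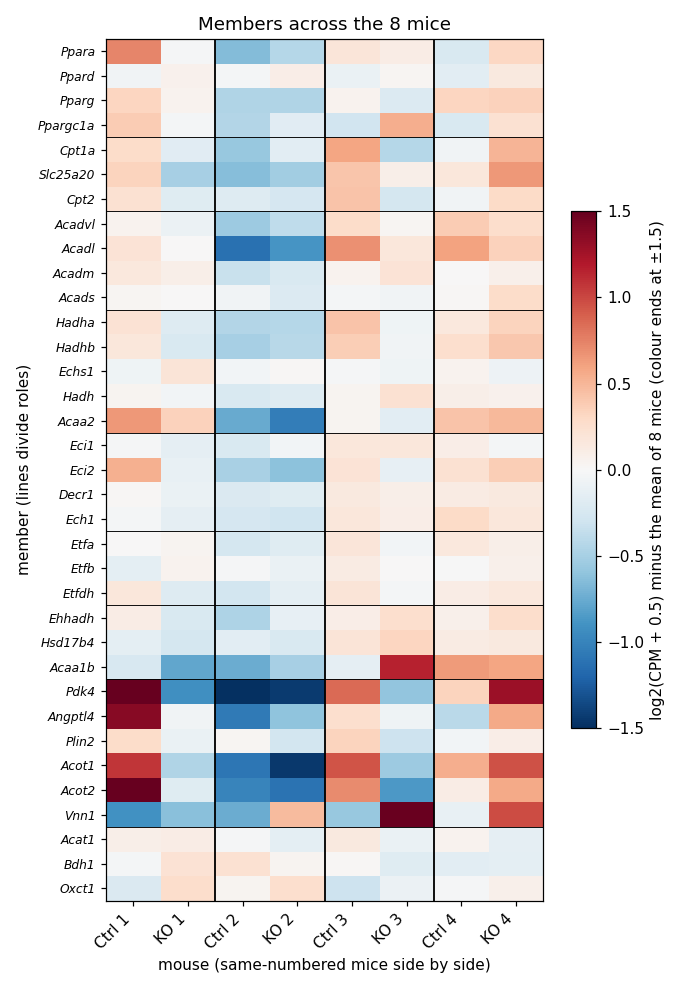
Log2(CPM + 0.5) of each member (y axis, roles divided by lines) minus its mean over the 8 mice, with same-numbered mice side by side on the x axis; red is above and blue below the mean, and the colour ends at ±1.5. Both replicate 2 mice are blue for most members, while replicates 1 and 3 are redder in Ctrl than in KO for most members and replicate 4 is mostly red in both genotypes.

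Other genes of the same pathways were taken from a list of 120, of which 119 were found in the table and 106 passed the filter. Without adjustment, 10 of the 106 reached p under 0.05 and were higher in KO (9.43%) and 0 lower, against the 5.33% and 3.05% of all genes given above, and their median log2 fold change was 0.04. None passed the adjustment in edgeR's quasi-likelihood test or in DESeq2 (14 of the 106 at an unadjusted p under 0.05 there, against 9.08% of all genes tested). In the paired fit with the replicate block, 17 of the 106 passed the unadjusted threshold, 15 of them higher, against 11.3% of all genes tested in either direction. With genotype only, the count of 10 became 3 without Ctrl 1, 4 without KO 3, 5 without KO 4, 6 without both replicate 2 mice, 17 without Ctrl 4 and 22 without KO 1. Over all genes tested in these fits, the shares were 6.72%, 5.16%, 6.16%, 6.40%, 9.02% and 12.98%, in the same order.

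By role, those named spread over lipid handling. Of activation and synthesis there were Acsl5, which activates long-chain fatty acids (log2 fold change 0.61, SE 0.24), Acaca, acetyl-CoA carboxylase (0.21, SE 0.07), and Scd1, the stearoyl-CoA desaturase (0.79, SE 0.33). Of lipid droplets there were Pnpla2, the triglyceride lipase (0.25, SE 0.07), and Plin3 (0.32, SE 0.13). There were also the peroxisomal gene Eci3 (1.06, SE 0.42), the cytochrome P450 gene Cyp4f14 (0.97, SE 0.33), the pyruvate dehydrogenase phosphatase gene Pdp2 (0.27, SE 0.12) and the ileal hormone gene Fgf15 (2.06, SE 0.83).

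Most of these calls depended on single mice. Acaca, Pnpla2 and Cyp4f14 kept the unadjusted call whichever mouse was left out, although Cyp4f14 was 0.54 on the log2 scale without KO 3. Acsl5 lost it without Ctrl 1, Ctrl 2, Ctrl 3 or KO 3, and was 0.33 without KO 3. Eci3 and Plin3 lost it without any of Ctrl 1, Ctrl 2, Ctrl 3, KO 3 and KO 4, and were 0.76 and 0.18 without KO 3. Pdp2 lost it without Ctrl 1, Ctrl 2, KO 3 or KO 4 and with upper-quartile factors, and was 0.18 without KO 3. Plin3, Scd1 and Fgf15 also lost it in both limma fits on FPKM. Scd1 lost it without Ctrl 1, Ctrl 3, KO 3 or KO 4 and also in the paired fit (unadjusted p = 0.0606 by edgeR). Its log2 fold change ranged from 0.29 to 1.006 over the 16 alternatives. Fgf15 lost it without Ctrl 1, Ctrl 2, Ctrl 4 or KO 4, and was 0.98 without KO 4, which held 674 counts of it against 35 to 185 in the other KO mice.

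Pnpla2 stood at 98.7, 102, 91.8 and 105 CPM in Ctrl 1 to 4 and at 129.8, 116, 112 and 114 CPM in KO 1 to 4. Acaca stood at 54.4, 60.5, 54.9 and 59.6 CPM in Ctrl and at 62.6, 70.5, 70.2 and 62.2 CPM in KO. In both the genotypes did not overlap, which held for 3 of the 106 other pathway genes (2.83%, Pdk3 being the third, named after its values were seen), against the 4.05% of all genes. In all 4 pairs 16 of the 106 were higher in KO (15.1%), against 10.3% of all genes tested, and these included the 10, which had been called for being higher. For 6 of them the highest mouse was KO 3, the mouse with the highest enterocyte marker sum, and the part of that in their values was not tested.

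**Figure D5:**
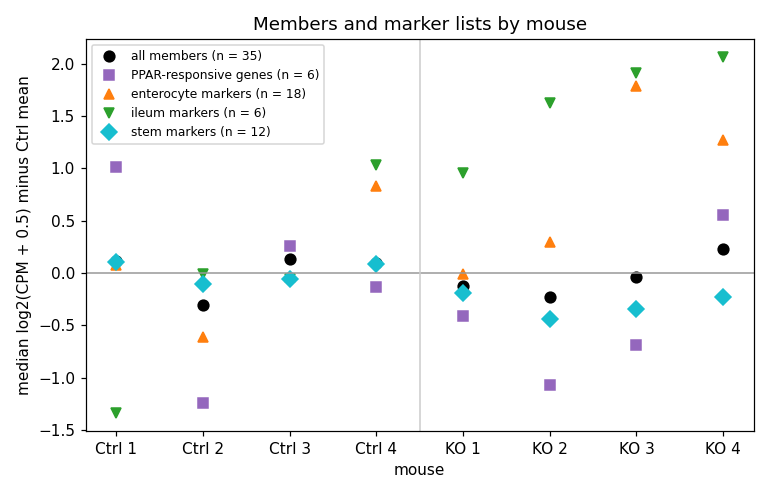
Median deviation of log2(CPM + 0.5) from the Ctrl mean (y axis) in each mouse (x axis), for all members, the PPAR-responsive members and the enterocyte, ileum and stem marker lists. The median of the members stays between -0.31 (Ctrl 2) and 0.23 (KO 4), whereas that of the ileum markers is between 0.96 and 2.07 in the KO mice.

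Other cell types were followed by their markers. Stem markers were below 0 in 12 of 12, 7 of them at an unadjusted p under 0.05, and the summed levels ran from 6056 to 6647 CPM in Ctrl and from 4592 to 5566 CPM in KO. Adipocyte markers summed to 2.90 to 9.43 CPM over the 8 mice, with Lep at 0 in all, and liver or kidney markers to 6.40 to 12.9 CPM, with Umod and Kap at 0 in all. Paneth cell markers summed to between 8201 and 53418 CPM, with a median log2 fold change of -0.72 and 0 of 8 at an unadjusted p under 0.05. Immune markers were higher at that threshold in 4 of 10, with sums of 32.0 to 73.3 CPM in Ctrl and 51.2 to 129.9 CPM in KO. Of 8 goblet cell markers 2 were higher and 1 lower, of 8 enteroendocrine markers 1 was higher, of 8 proximal intestine markers 1 was lower, of the 3 liver or kidney markers tested 1 was lower. Of 12 cycling markers and of the 4 tuft, 2 colon, 2 adipocyte and 6 stroma markers that passed the filter, 0 reached that threshold.

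Several members share exonic sequence or reads with other genes, and whether counting used the strand is not given in the sources used here. Etfb overlaps Gm45233 on the same strand over 58.2% of its exonic bases, and stood at 9.96 FPKM against 109 FPKM for its partner subunit Etfa. Gm45233 itself held 0 counts in all 8 mice. Opposite-strand genes cover 42.9% of Acadvl (Dvl2), 13.7% of Bdh1, 12.6% of Oxct1 and 11.4% of Acaa1b. Hadhb shares 52.8% of its 100-base stretches with the annotated genes Gm13910 and Gm9108, and Acaa1b shares 22.6% with Acaa1a. Levels of these members are uncertain to that extent.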

How the data were processed

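RNA of crypts from 8 mice was sequenced (Illumina), and samples were grouped by their genotype labels. The submitters' processing notes name CASAVA, HISAT2 2.0.5 and featureCounts 1.5.0-p3. The table deposited by the authors holds unnormalized read counts for each gene and mouse, and FPKM values, which are scaled for the length of the gene and the size of the library. Its coordinates are those of GRCm38 and match GENCODE M21 for 33 of the 35 members. The authors' group means, fold changes and p-values from their DESeq2 comparison were not used. The members and all lists of genes were chosen with earlier results of these data known.

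From the counts, KO and Ctrl were compared with edgeR 4.0.16 in R 4.3.3 (filterByExpr with a minimum count of 10, TMM, quasi-likelihood test, genotype as the only term, all 8 mice), over 16109 genes, with Benjamini-Hochberg adjustment and a threshold of 0.05. CPM are normalized with TMM, and the CPM of single genes were compared by exact permutation over 70 assignments. The prior degrees of freedom came to 3.34 and the common coefficient of biological variation to 0.237. For edgeR, each standard error is the size of the log2 fold change divided by the square root of the quasi-likelihood F statistic. A fold change compared with that standard error therefore restates the test. All 35 members are described by role; values in every mouse are printed for members at an unadjusted p under 0.05, for those whose genotypes do not overlap, and for Cpt1a, Ppara, Ppard, Pparg, Ppargc1a, Pdk4, Angptl4, Plin2 and Mex3a, and of the other pathway genes the 10 at an unadjusted p under 0.05 are counted, and all but 1, which is not reported here by name, are named. Values of Ech1 were added after they were seen.

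On simulated counts edgeR recovered 81.2% of 192 changed genes among 15852 (97.9% of the 4-fold changes), and 3.11% of its calls were false. DESeq2 1.42.0 recovered as many, with 13.8% of calls false. Recovery at the fold changes and the spread of the members was not tested separately, and these shares do not give it. The labels do not say what a replicate number marks. Deviations of same-numbered mice had correlations between 0.134 and 0.552 across the genes tested (0.0867 and 0.529 for autosomal genes), so the numbers were treated as pairing the mice, and this takes in the shared sex. The match was not exclusive, since KO 3 correlated more with Ctrl 4 (0.282) than with Ctrl 3 (0.136) across the genes tested. Mice of a genotype differed by more than sampling noise (chi-square of 23.4 to 86.3 per degree of freedom), so that none was counted as a duplicate. Alternatives were a DESeq2 fit, edgeR with RLE or with upper-quartile factors, edgeR unfiltered, limma 3.58.1 on log2(FPKM + 1) and log2(FPKM + 0.1) for genes with a mean of at least 0.5 FPKM, the replicate block, each mouse left out, and replicate 2 of both genotypes left out (added after the data were seen). Figures were drawn with matplotlib 3.10.9.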

Additional observations from a re-analysis of the deposited data

Results flagged for a closer look

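In the members and Mex3a, 72 groups of 4 mice were examined for a mouse set apart from the other 3 by Dixon's test, and 5 were found where chance gives about 1 in 20, or 3.6. Cpt2 was 159 CPM in KO 4, with the next mouse at 115 CPM. Pdk4 was 37.3 CPM in KO 4, with the next at 9.82 CPM. Hadh was 356 CPM in Ctrl 2, below the next mouse at 428 CPM, and Ehhadh was 55.5 CPM in Ctrl 2, below the next at 81.2 CPM. Acat1 was 253 CPM in KO 1, with the next at 217 CPM. Of the 5, Cpt2 and Pdk4 were high in KO 4 and Hadh and Ehhadh were low in Ctrl 2.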

How the results depend on the processing

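Over the 16 alternatives, the unadjusted call of Vnn1 was kept in all, that of Ppard in 11, of Plin2 in 10 and of Oxct1 in 9. At an unadjusted p under 0.05, members numbered 1 to 6 when single mice were left out and 1 without replicate 2 of both genotypes, all genes tested 846 (without KO 3) to 2133 (without KO 1), and the other pathway genes 3 to 22, with 16 without the filter, 17 with the replicate block and 6 without replicate 2 of both genotypes. At an adjusted p under 0.05, all genes numbered 93 with DESeq2, 2 without the filter, 0 with the replicate block, 3 without replicate 2 of both genotypes and 0 to 4 when single mice were left out (4 without Ctrl 2, 1 without KO 2 and 0 without any other mouse). The paired fit with the replicate block changed the call of no member and of no other gene named as passing except Mex3a (adjusted p = 0.126) and Scd1 (unadjusted p = 0.0606), whereas 8 other pathway genes passed in that fit and not with genotype only.

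The sign of 19 members turned in some alternative, the largest of them at 0.40 on the log2 scale. Their log2 fold changes when single mice were left out ranged as follows: Ppara (-0.27 to 0.21), Cpt1a (-0.37 to 0.061), Slc25a20 (-0.41 to 0.033), Acadvl (-0.27 to 0.0092), Acadm (-0.031 to 0.15), Acads (-0.071 to 0.10), Echs1 (-0.020 to 0.074), Hadh (-0.041 to 0.10), Acaa2 (-0.37 to 0.076), Eci1 (-0.10 to 0.040), Decr1 (-0.10 to 0.027), Ech1 (-0.17 to 0.0016), Etfa (-0.14 to 0.0065), Etfb (-0.023 to 0.076), Ehhadh (-0.035 to 0.17), Hsd17b4 (-0.11 to 0.088), Acaa1b (-0.076 to 0.78), Angptl4 (-0.58 to 0.34), Bdh1 (-0.12 to 0.047). Hsd17b4 was -0.010 with upper-quartile factors and -0.0058 with the replicate block, and Bdh1 was 0.036 without replicate 2 of both genotypes. The cause was not tested. With 4 mice per genotype, 11 members had a log2 fold change larger than its standard error and 4 of them reached an unadjusted p under 0.05. The share of all genes with a fold change larger than its standard error was not counted.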
